A study of Sus scrofa with 24 samples.

Results

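The genes of the cytosolic ribosomal proteins were followed in circulating mononuclear cells of pigs. Members were the probe sets of an Affymetrix porcine array whose annotated symbol was RPL or RPS with a number, RPLP0, RPLP1, RPLP2 or RPSA. The rule found 90 probe sets of 58 genes, out of 24123 probe sets and 6765 genes with a symbol on the array. They comprised 24 genes of the small subunit, 31 of the large subunit and the 3 stalk genes. After the probe sets with the lowest signal had been left out, 86 of the 90 were tested, and each of the 58 genes kept at least 1 of them. The 4 that were left out were further probe sets of RPS25, RPL9 and RPL7, with mean log2 intensities between 2.61 and 3.48. The brightest probe set, by mean log2 intensity, stands for a gene, and further probe sets are named as such. A further 8 probe sets that carried the symbol of such a gene beside others (RPL10, RPL36, RPL35A and RPS15) were left out.

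Cytosolic ribosomes are built from ribosomal RNA and one copy of most ribosomal proteins, and the small subunit reads the message while the large subunit joins the amino acids. The acidic stalk of RPLP0, RPLP1 and RPLP2 recruits the translation factors. Messages of ribosomal proteins carry a pyrimidine-rich start through which TOR signalling controls their translation, and in blood cells they are among the most abundant messages.

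Blood was taken from 24 pigs after 4 months of feeding, and each of the 6 diet groups held 4 animals, 2 females and 2 males, each measured on an array of its own. CT received standard commercial chow and CT-GE-RES the same chow with resveratrol-enriched grape extract. AD received an atherogenic diet with beef tallow (5.5%), coconut oil (10%) and cholic acid (1%). Added to that diet were grape extract for AD-GE, the resveratrol-enriched extract for AD-GE-RES and resveratrol alone for AD-RES. Grape extract was given at 1 g and resveratrol at 18 mg per 70 kg of body weight, and 1 g of the enriched extract held the equivalent of 18 mg of resveratrol. The sources used here did not give the breed or age of the pigs. Animals are named by group and a number that only tells them apart. All levels are log2 intensities and all differences are differences in log2 intensity, and the number of arrays limits their precision. The mononuclear fraction was prepared by density gradient, so that lymphocytes, monocytes and any remaining platelets, red cell precursors and granulocytes were measured together. In such a mixture, fewer cells of a type and less RNA per cell cannot be told apart.

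Nearly all members gave signals close to the top of the scale. The used probe sets of 54 genes lay at mean log2 intensities of 12.90 to 14.32, and the highest signal of any probe set was 14.38 to 14.61 on the 24 arrays. The used probe sets of RPL37 (8.64), RPL26 (6.12), RPL30 (3.98) and RPS15A (3.66) lay far lower. Those of RPL30 and RPS15A were near 3.57, the level under which probe sets were left out. Differences of these genes given below are therefore differences of signals near the floor. Signals of different probe sets depend on their own probes, so these levels do not order the genes. Among the 58 member probe sets with a mean above 12, the SD over the 24 arrays had a median of 0.064, with a range of 0.024 to 0.28. The 176 other probe sets above 12 had a median SD of 0.13, and all 17999 probe sets tested had one of 0.23. Whether signals so close to the top of the scale still follow the amount of RNA was not tested. Small SDs here and narrow intervals below therefore need not mean constant messages. The limit of 12 was chosen after the values were seen. RPS12 of the small subunit had the smallest SD (0.024) and ran from 13.82 to 13.94 over the arrays. RPS9, also of the small subunit, had the largest SD of these probe sets (0.28), and ran from 12.18 to 13.61. The difference between the highest and the lowest array was under 0.5 for 41 of the 58 genes and above 1 for 2, RPS9 and RPL30. For the 28 member probe sets of lower signal, 4 of them the used probe sets named above, the SD had a median of 0.28 and lay between 0.14 and 0.66.

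**Figure D1:**
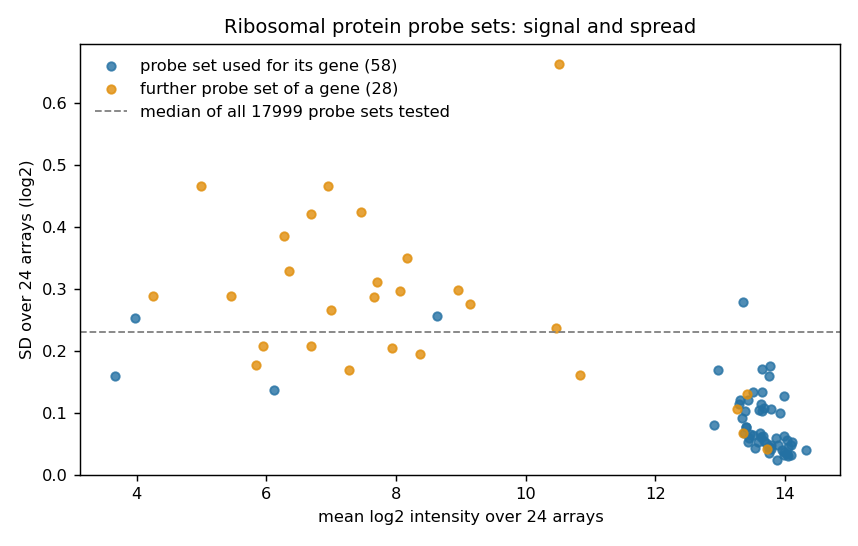
Mean log2 intensity of each tested member probe set over 24 arrays (horizontal) and its SD over those arrays (vertical), with the median SD of all 17999 probe sets tested as a dashed line. The used probe sets of 54 genes sit at the right, between 12.90 and 14.32, mostly far below the line, and the further probe sets of lower signal scatter around it.

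The standard chow animal CT 4 stood apart from the other arrays. Many results that rest on it are given with and without it, and some only with it. It held the lowest of the 24 values in 22 of the 58 genes, and it held the lowest value for 16.8% of all genes tested. In 13 member genes it lay more than 0.3 below the mean of the other 3 CT animals, as did 26.4% of all probe sets tested. RPS9 was at 12.18 in CT 4 against 13.33 ± 0.079 (SD, n = 3) in the other CT animals, and RPS2, a protein at the entry of the message channel, at 13.03 against 13.77 ± 0.021. RPL5, which binds the 5S ribosomal RNA together with RPL11, was at 13.13 in CT 4 against 13.71 ± 0.066. RPSA, also known as the laminin receptor, was at 13.07 against 13.65 ± 0.098. Other members did not share this: RPS18 and RPS26 of the small subunit were highest of all arrays in CT 4, at 14.39 and 14.14, and the median over the 58 genes of the difference from the other CT animals was -0.022.

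The quality and cell markers of CT 4 differed as well. The 3'/5' ratio, the mean log2 signal of 3' over 5' probe sets of 3 control transcripts, was 4.39 in CT 4 and 1.37 to 4.08 on the other arrays. Of the marker lists, 10 of 13 genes were measured for T cells, 4 of 10 for B cells, 3 of 7 for NK cells, 14 of 17 for monocytes, 5 of 9 for neutrophils, 7 of 10 for platelets and 5 of 10 for the red cell line. CD3E, CD79B and CD163, markers of T cells, B cells and monocytes, had mean log2 intensities of 10.18, 8.73 and 8.76, so these 3 markers were present. Other markers on the lists varied widely. The means ran from 4.54 (CD4) to 11.40 (CD8A) for T cells and from 6.97 to 9.31 for B cells. For monocytes they ran from 3.58 (ITGAM) to 12.45 (CTSS), with CD14 at 6.05. Red cell markers were also present, with ALAS2 at 11.27, and platelet PPBP lay at 8.78, while the 5 neutrophil markers lay at 7.31 (CHI3L1), 6.96 (LTF), 5.43 (PGLYRP1), 4.21 (ELANE) and 4.00 (MMP9). On CT 4, LTF was at 11.10 and PGLYRP1 at 7.38, each the highest of the 24 arrays. The other neutrophil markers did not share this. CHI3L1 (7.74), ELANE (4.19) and MMP9 (4.08) on CT 4 lay below their highest arrays (9.11, 4.64 and 4.40). In CT 4 the T cell markers lay at a mean of -1.24 from their average over the arrays, against 0.12, -0.29 and -0.39 in CT 1, CT 2 and CT 3. The red cell markers lay at a mean of 1.99 in CT 4 and the neutrophil markers at 1.32. Of the T cell markers, CD2, CD247, CD3D, CD3G, IL7R and LEF1 were lowest of all arrays in CT 4. CD3E (9.55) was near its lowest array (9.51). CD8A, LCK and CD4 lay further inside their ranges, with LCK at 10.35 (range 9.91 to 11.07) and CD4 at 4.43 (range 4.05 to 5.28). Of the red cell markers, ALAS2, HBM, AHSP and HBE1 were highest of all arrays in CT 4. HBB was near its lowest there, at 7.94 with a range of 7.93 to 9.15.

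**Figure D2:**
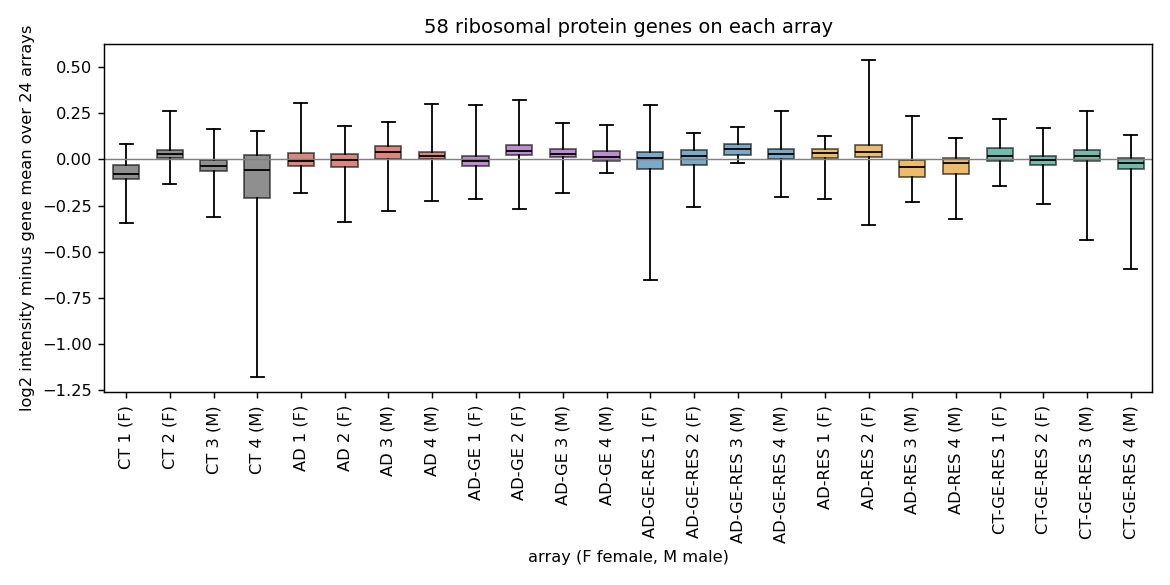
Log2 intensity of the 58 member genes on each of the 24 arrays, minus the gene's mean over all arrays. Boxes span the quartiles of the genes with the median as a line, whiskers reach the lowest and highest gene, and CT 4 has the longest whisker downwards while the medians of all arrays lie between -0.079 and 0.055.

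The members kept some of their order across animals together. After the means of diet and sex had been taken out, the 1431 pairs of the 54 genes of high signal had a median Pearson correlation of 0.34, or 0.42 without CT 4. The 5050 pairs of 101 other genes of high signal had a median of 0.051, and pairs over all 6033 genes tested one of 0.0040. These correlations describe 24 arrays that share their labelling and normalization. RPL29 of the large subunit followed the others most closely, with a mean correlation of 0.51, and RPS10 (0.49), RPS6 (0.48), RPL13 (0.48) and RPS19 (0.47) came next. RPS6 is the ribosomal substrate of the S6 kinases, and RPS19 is a gene mutated in Diamond-Blackfan anaemia. Without CT 4 the mean correlation of RPL29 was 0.56 and that of RPS10 0.55. RPS18 (-0.18), RPS26 (-0.074) and RPL22 (0.0033) had the lowest mean correlations over the 24 arrays. Without CT 4 these were -0.12, 0.11 and 0.082, and RPS27A (0.018) and RPS4X (0.060) then lay below RPL22 and RPS26. The mean over the 58 genes, each set to its own average, was lowest in CT at -0.059 ± 0.074 (SD, n = 4), followed by AD-RES at 1.26e-05 ± 0.051 and CT-GE-RES at 0.0010 ± 0.028. Above these came AD at 0.013 ± 0.018, AD-GE-RES at 0.017 ± 0.037 and AD-GE at 0.028 ± 0.022. No neighbours in that order differed by more than the larger of their SDs.

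The study asked what the atherogenic diet does, and AD against CT is its first comparison. No member gene was called by limma at an adjusted p under 0.05, nor was any of the 17999 probe sets (0%). At an unadjusted p under 0.05 there were 3 of 58 member genes, all higher in AD, beside 6.38% of all probe sets tested. The difference lay above 0 in 45 of the 58 genes with a median of 0.051, against 50.4% and 0.0017 for all probe sets. The small subunit had a median of 0.055 (18 of 24 above 0) and the large subunit 0.042 (25 of 31 above 0). The differences ran from -0.13 in RPL30 to 0.43 in RPS9. For 56 of 58 genes the 95% interval lay within 0.5 of 0, a change of 1.41-fold, as it did for 58.2% of all probe sets. Signals near the top of the scale limit what these intervals show. Without CT 4 the median was 0.036, 46 genes lay above 0, and none was called. Then 1 gene had an unadjusted p under 0.05, RPS15A (0.28), whose signal was near the floor. When the 3'/5' ratio was added as a covariate, the median was 0.048. RPS9 then differed by 0.25 and RPS2 by 0.15, and by 0.13 and 0.086 when the monocyte, T cell, B cell and red cell marker means were added in its place.

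Among small subunit genes, RPS9 read 13.34, 13.41, 13.25 and 12.18 in CT 1 to CT 4 and 13.40, 13.51, 13.49 and 13.48 in AD 1 to AD 4. CT 4 alone was far below the rest, and CT 2 lay above AD 1. The difference was 0.43 with a standard error (SE) of 0.19 (limma adjusted p = 0.76), and 0.13 with an SE of 0.11 without CT 4.

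RPS2 read 13.78, 13.78, 13.74 and 13.03 in CT and 13.77, 13.89, 13.89 and 13.82 in AD. The groups overlapped through AD 1, and the difference of 0.26 (SE 0.12, limma adjusted p = 0.76) was 0.066 without CT 4. RPS3A of the small subunit read 14.00, 13.96, 13.98 and 13.44 in CT and 14.02, 14.02, 14.03 and 14.03 in AD. These groups did not overlap, and the AD animals lay very close together.

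RPS3A differed by 0.18 (SE 0.10, limma adjusted p = 0.77) and by 0.042 without CT 4. RPS24, RPS15A and RPS4X, the copy of RPS4 on the X chromosome, differed by 0.17, 0.23 and 0.15. RPSA differed by 0.19 and RPS6 by 0.088, each at a limma adjusted p of 0.77 or above. RPSA averaged 13.69 in AD, against 13.65 in the other CT animals and 13.07 in CT 4. For RPS4X these values were 13.31, 13.25 and 12.90. RPS26 and RPS18 had small differences below 0, -0.037 and -0.032.

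Of the large subunit, RPL6 had the smallest p. It read 13.43, 13.65, 13.58 and 13.22 in CT and 13.76, 13.71, 13.64 and 13.67 in AD. CT 1 and CT 4 were low and CT 2 lay just above AD 3. The difference was 0.23 (SE 0.086, limma adjusted p = 0.76), and 0.14 (SE 0.079) without CT 4. At the low end, RPL30 differed by -0.13, RPL27 by -0.063 and RPL26, known to promote the translation of p53, by -0.036.

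The stalk genes RPLP1 and RPLP2 had differences above 0 and RPLP0 lay slightly below 0, and no test compared these genes. RPLP1 read 13.35, 13.41, 13.39 and 13.34 in CT and 13.51, 13.49, 13.52 and 13.48 in AD. Every AD animal was above every CT animal. The difference was 0.13 (SE 0.068, limma adjusted p = 0.77) and 0.12 without CT 4. RPLP2 differed by 0.11 (SE 0.078), with CT 4 above 3 of the AD animals, and RPLP0 by -0.0055 (SE 0.066). RPS3A and RPLP1 were the 2 of 58 genes whose groups did not overlap, beside 2.74% of all probe sets tested.

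**Figure D3:**
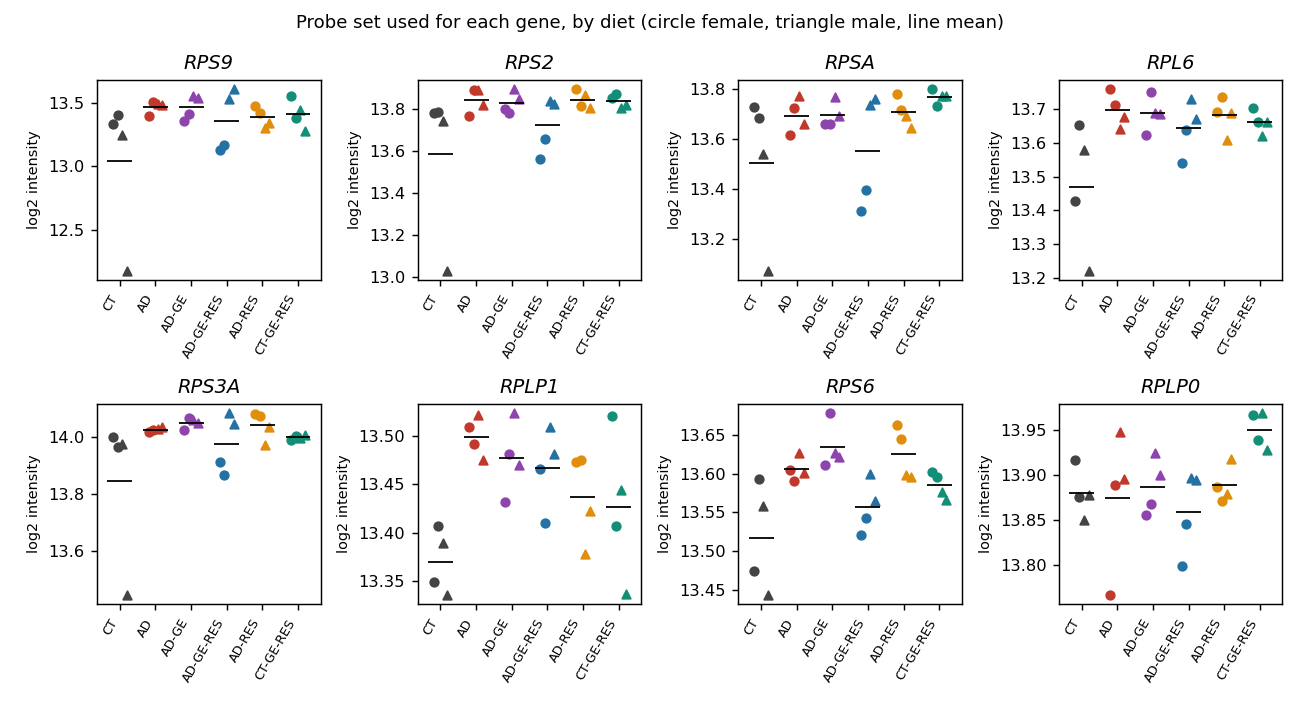
Log2 intensity of 8 member genes in each pig by diet group, with circles for females, triangles for males and a line at the group mean of 4 animals. CT 4 is the lowest point of RPS9 (12.18), RPS2 (13.03), RPSA, RPL6, RPS3A, RPLP1 and RPS6, and not of RPLP0.

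Grape extract on the atherogenic diet was compared with that diet alone. In AD-GE against AD no member gene and no probe set (0%) was called by limma, and 0 of 58 genes had an unadjusted p under 0.05, beside 6.09% of all probe sets. The median difference was 0.016 with 35 genes above 0 (all probe sets 0.0065), and the range was -0.073 to 0.22. RPL37 of the large subunit had the highest value, 0.22 (SE 0.15), followed by RPL30 (0.18) and RPL5 (0.12). RPL5 read 13.75, 13.96, 13.92 and 13.87 in AD-GE and 13.73, 13.75, 13.82 and 13.71 in AD. Its 3 highest values were AD-GE animals, yet AD-GE 1 lay among those of AD. The lowest moderated statistics belonged to RPS15A (-0.073), RPL26 (-0.066), RPL31 (-0.063), RPLP2 (-0.044) and RPS12 (-0.034). RPS12 and RPL9 (0.028) were the 2 of 58 genes without overlap, beside 4.72% of all probe sets, and both differences were small beside their SE (0.063 and 0.090).

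The resveratrol-enriched extract was compared next. In AD-GE-RES against AD, 0 members and 0 of 17999 probe sets (0%) were called by limma, 0 members had an unadjusted p under 0.05 (2.4% of all probe sets), and no member separated the groups (1.26% of all). The median difference was 0.014 with 35 of 58 genes above 0, against 0.0089 for all probe sets. RPSA read 13.31, 13.40, 13.74 and 13.76 in AD-GE-RES 1 to 4 and 13.61, 13.72, 13.77 and 13.66 in AD. The 2 females of AD-GE-RES were low and the 2 males lay within the range of AD. The difference was -0.14 (SE 0.12), that of RPS2 -0.12 and that of RPL30 -0.22, while RPL37 had the highest value at 0.18. AD-GE-RES 1 and AD-GE-RES 2 had 3'/5' ratios of 3.40 and 4.08 against 1.67 and 1.62 in the males. When the ratio was added as a covariate, RPSA differed by -0.075.

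Resveratrol alone was compared in the same way. In AD-RES against AD, 0 members and 0 probe sets (0%) were called by limma and 0 members had an unadjusted p under 0.05 (4.45% of all). The median was -0.011 with 23 of 58 genes above 0, against -0.0024 for all probe sets, and all 58 intervals lay within 0.5 of 0. The median turned to 6.63e-04 when quantile normalization was repeated, to 0.0012 without AD 3 or without AD-RES 3, and to 0.043 in females, and was -0.066 in males. RPS27A, which encodes a fusion of ubiquitin with a small subunit protein, read 13.91, 13.95, 13.93 and 13.90 in AD-RES and 13.84, 13.80, 13.83 and 13.89 in AD. All AD-RES animals lay above all AD animals, by a mean of 0.082 (SE 0.070, limma adjusted p = 0.98). RPLP1 also separated the groups, with a difference of -0.062, and these 2 genes stand beside 2.81% of all probe sets. RPL26 had the lowest difference (-0.16), followed by RPS27 (-0.12), RPL31 (-0.10), RPL15 (-0.089), RPS9 (-0.085) and RPL13 (-0.084), and RPS10 differed by -0.081. For RPS27, AD-RES 3 and AD-RES 4 were at 13.73 and 13.67, below every AD animal, and AD-RES 1 and AD-RES 2 at 13.97 and 14.01. The 3 supplemented groups shared AD as their control, so their values are not independent of each other.

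On standard chow the enriched extract was compared with CT, which also served AD. No member and no probe set (0%) was called by limma in CT-GE-RES against CT, and 2 of 58 genes, RPL6 and RPSA, had an unadjusted p under 0.05 beside 6.8% of all probe sets. The difference lay above 0 in 46 genes with a median of 0.042, against 52.3% and 0.0094 for all probe sets. RPSA read 13.80, 13.73, 13.77 and 13.77 in CT-GE-RES and 13.73, 13.68, 13.54 and 13.07 in CT. The groups did not overlap, and CT 4 made up most of the distance. The difference was 0.26 (SE 0.12, limma adjusted p = 0.70) and 0.11 (SE 0.10) without CT 4. RPS9 (0.37), RPS2 (0.25), RPL8 (0.20) and RPL6 (0.19) were among the other high values and were 0.073, 0.062, 0.056 and 0.11 without CT 4. RPL8 is a large subunit protein near the site of peptide bond formation. RPL37 lay lowest at -0.25 (SE 0.15), followed by RPL22 at -0.057. RPSA, RPS2, RPL13A (0.048) and RPLP0 (0.071) did not overlap, 4 of 58 genes beside 4.03% of all probe sets. Without CT 4, 48 genes lay above 0 with a median of 0.035 and 0 had an unadjusted p under 0.05.

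**Figure D4:**
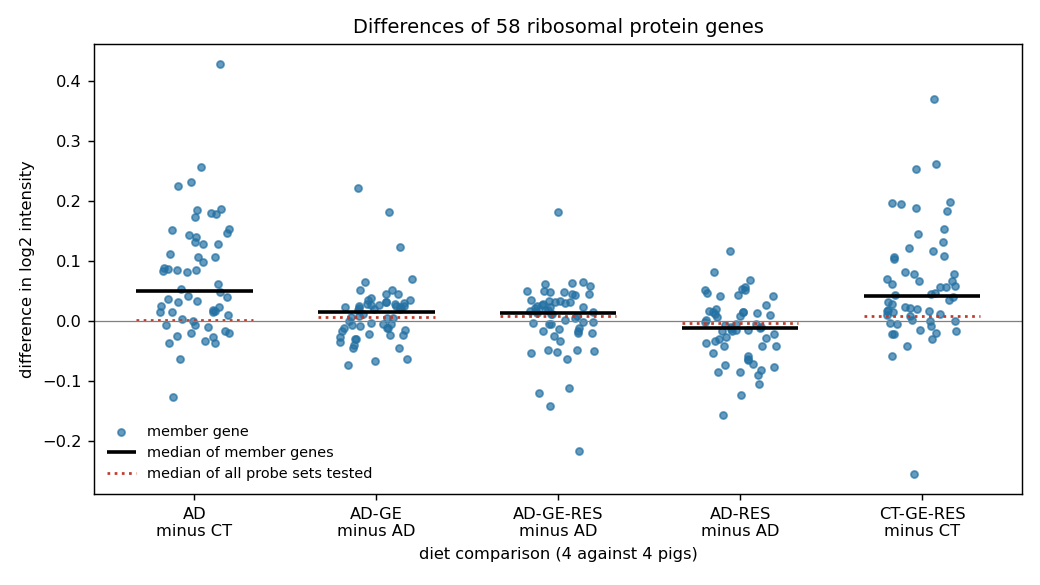
Difference in log2 intensity of each of the 58 member genes in the 5 diet comparisons of 4 against 4 pigs (dots), with the median of the members (black line) and of all probe sets tested (red dotted line). Member medians lie between -0.011 and 0.051, and the widest spread is in the comparisons with CT.

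All 6 diets were then tested together. The moderated F test of limma called 0 members and 0 probe sets (0%), and 0 members had an unadjusted p under 0.05, beside 9.16% of all probe sets. The enriched extract was also compared between the diets, as the difference on the atherogenic diet minus that on chow. Again 0 members and 0 probe sets (0%) were called by limma, and RPSA (-0.40, SE 0.17) and RPS2 (-0.37, SE 0.18) had an unadjusted p under 0.05, beside 3.12% of all probe sets. Without CT 4 they were -0.25 and -0.18, and 0 members had such a p.

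The sexes were compared over 12 females and 12 males. limma called 48 probe sets, 0.267% of those tested, and 0 of the 58 member genes by their used probe sets. No used member probe set had an unadjusted p under 0.05, beside 10.3% of all probe sets. The differences, males minus females, ran from -0.17 in RPL37 to 0.097 in RPL26, and that of RPL4 was 0.079 (SE 0.073). All 58 intervals lay within 0.5 of 0, as did 87.3% of all. The X-linked RPS4X was not among the 10 genes with the most extreme statistics.

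A further probe set of RPS13, a small subunit gene, was called. It read 4.14 to 4.86 in females with a median of 4.40, and 3.70 to 4.35 in males with a median of 4.07, so the sexes overlapped. The difference was -0.38 (SE 0.080, limma adjusted p = 0.043), and the male mean minus the female mean lay between -0.79 and -0.10 in the 6 diet groups. The brighter probe set of RPS13 differed by -0.017 (SE 0.037). The call was made in 10 of 30 other settings, with adjusted p from 0.0085 to 0.098, and was lost, for example, without CT 4 (0.074).

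The diet difference between the sexes, AD minus CT in males minus that in females, was tested with 2 animals in each cell. limma called 21 probe sets (0.117%) and 0 member genes. RPS9 (0.69, SE 0.31) and RPSA (0.45, SE 0.19) had an unadjusted p under 0.05, beside 14.9% of all probe sets. CT 4 is 1 of the 2 CT males, and without it 0 members had such a p. Without CT 3, which leaves CT 4 as the only CT male and assumes that it varies like the other groups, limma called 7 member genes, all above 0, and 5.34% of all probe sets. They were RPS9 (1.23), RPS2 (0.78), RPSA (0.68), RPL8 (0.66), RPL5 (0.64), RPL14 (0.61) and RPS3A (0.55).

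Of the tests run on all 24 arrays, the slope on the 3'/5' ratio alone called used member probe sets. In a fit with diet and sex, limma called 2075 probe sets (11.5%) on the slope of signal against the ratio, 8.29% with a negative and 3.24% with a positive slope. Of the 58 genes 4 were called, all with negative slopes, and 8 had an unadjusted p under 0.05 beside 25% of all probe sets. RPL4, whose extension lines the exit tunnel of the large subunit, had a slope of -0.16 for each unit of the ratio (SE 0.030, limma adjusted p = 7.57e-04). RPL4 lay between 13.15 and 13.21 on AD 2, AD 3, AD-GE 3, CT-GE-RES 1 and AD-GE-RES 4, which had ratios of 1.37 to 1.77, and between 12.67 and 12.77 on CT 3, CT 4, AD-GE 1, AD-GE-RES 1 and AD-GE-RES 2, with ratios of 3.24 to 4.39. RPSA (-0.13), RPS4X (-0.092) and RPS9 (-0.18) had limma adjusted p of 0.020, 0.032 and 0.041.

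RPL4 was called with each of the 24 arrays left out in turn (slope -0.18 to -0.16). RPSA was called in 22 of those fits, RPS4X in 19 and RPS9 in 11. Without CT 4, RPL4 alone was called (9.56% of all probe sets), and the slope of RPS9 was -0.084. Without CT 1, RPL4 alone was called too (7.63% of all). The median slope over the 58 genes was -0.0046, against 0.020 for all probe sets, and 27 genes had a slope above 0. The ratio averaged 3.15 ± 1.13 (SD, n = 4) in CT and 2.19 ± 0.87 in AD (exact permutation test, two-sided, p = 0.14).

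**Figure D5:**
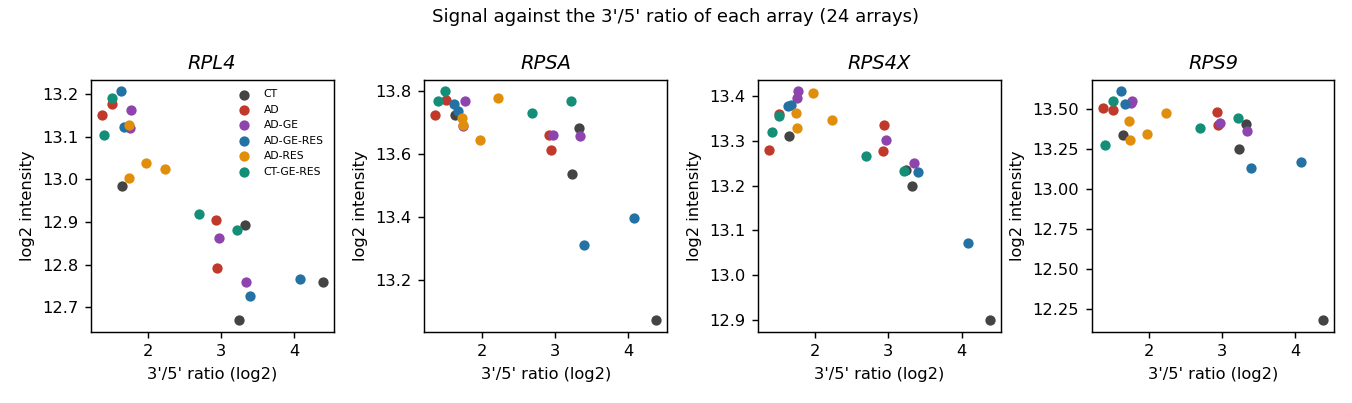
Log2 intensity of RPL4, RPSA, RPS4X and RPS9 against the 3'/5' ratio (log2) of each of the 24 arrays, coloured by diet group. RPL4 has a slope of -0.16 for each unit of the ratio, while RPS9, RPSA and RPS4X take their lowest value from the array with the highest ratio, CT 4.

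Monocyte markers did not agree on CT 4. There S100A9 (12.67), S100A8 (9.54) and SIGLEC1 (4.59) were highest of all arrays and CD14 (4.31) was lowest. The other monocyte markers on CT 4 lay between their lowest and highest arrays. The mean of 14 monocyte markers was used for the monocyte content of the fraction, and whether it follows that content was not tested. That mean was 0.33 ± 0.14 (SD, n = 4) in AD, 0.26 ± 0.27 in CT, -0.31 ± 0.22 in AD-GE and -0.24 ± 0.61 in AD-RES. With diet, sex and the 3'/5' ratio in the fit, 2022 probe sets (11.2%) were called by limma on the slope against it, 6.19% negative and 5.04% positive, and 0 of the 58 members. An unadjusted p under 0.05 was reached by 4 genes, RPS25 (-0.19), RPL31 (-0.20), RPL13 (-0.18) and RPSA (-0.17), beside 27.3% of all probe sets. The slope lay below 0 in 54 of 58 members with a median of -0.072, against -0.022 for all probe sets. With the monocyte, T cell, B cell and red cell marker means in the fit, the member median was 0.035 in AD against CT and -0.0092 in CT-GE-RES against CT. In the groups compared with AD that median was -0.036 for AD-GE, -0.010 for AD-GE-RES and -0.074 for AD-RES.

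Genes with several probe sets allowed probe sets of the same symbol to be compared. Whether the lower-signal probe sets read the message of the annotated gene was not tested, so the pairs need not measure the same RNA. Of the 58 genes 24 had several probe sets, 22 of them several tested. In 24 pairs of a brighter with a lower-signal probe set of the same gene, the correlation within diet groups had a median of -0.0094, from -0.48 in RPL13A to 0.65 in RPL38. The AD minus CT difference had the same sign in 11 of the 24. The 4 pairs of high signal had correlations of 0.81 in RPL27, 0.98 in RPL31, and -0.24 and 0.15 in RPS18. Names of the RPL31 probe sets, and of the RPS18 pair at 0.15, differ only in their ending, so these pairs need not be independent.

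The 4 genes whose probe sets differed most between AD and CT were RPS28, RPS12, RPS6 and RPL6. A further probe set of RPS28 read 6.87, 6.45, 6.21 and 5.48 in CT and 6.84, 7.17, 6.22 and 6.83 in AD. CT 4 was lowest and the groups overlapped. The difference was 0.51 (SE 0.23, limma adjusted p = 0.76), against 0.017 for the brightest one and 0.039 for the remaining one.

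The further probe sets of RPS12, RPS6 and RPL6 differed by 0.45, -0.24 and -0.042, against -0.017, 0.088 and 0.23 for the brighter ones. The 28 probe sets of lower signal had a median difference of 0.014 in AD against CT (14 above 0) and of 0.24 in AD-GE against AD, where 21 lay above 0. There RPL32 (0.49), RPL6 (0.43), RPL27 (0.43) and RPLP1 (0.38) were highest, all at a limma adjusted p of 0.81 or above. Their medians were 5.12e-04 for AD-GE-RES and 0.022 for AD-RES, both against AD, and -0.034 for CT-GE-RES against CT.

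A further probe set of RPS27 held the widest spread of the family, with an SD of 0.66. It fell into separate ranges: CT 4, AD 1, CT-GE-RES 2, AD-RES 1, AD-GE 2 and CT-GE-RES 1 read 9.17 to 9.71, and the other 18 arrays read 10.48 to 11.31. The low animals came from 5 of the 6 diets, and 5 of the 6 were females. The brighter RPS27 probe set read 13.76 to 14.02 in these 6 animals and 13.67 to 14.07 in the others, with no such gap.

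Other genes of translation were followed from lists. Of 27 initiation and elongation factors measured, 22 lay above 0 in AD against CT with a median of 0.071, and 24 in CT-GE-RES against CT with a median of 0.17. Of 30 ribosome assembly genes these counts were 20 and 25, with medians of 0.084 and 0.16. Of 58 mitochondrial ribosomal protein genes, 28 lay above 0 in AD against CT (median -0.014) and 54 in CT-GE-RES against CT (0.21). Over all probe sets tested, 50.4% and 52.3% lay above 0 in these comparisons, with medians of 0.0017 and 0.0094. The values of these lists include CT 4, and how far they rest on it was not tested. None of the genes on these lists was called by limma in a diet comparison, and neither were the 10 genes of TOR signalling or 7 paralogs and ubiquitin fusions outside the rule. EIF1AX, an initiation factor, was the only list gene called between the sexes, with a difference of -0.49 (limma adjusted p = 1.29e-04). On the 3'/5' ratio, 9 of 27 factors and 3 of 30 assembly genes were called with negative slopes, beside 8.29% of all probe sets, among them NOB1 (-0.44) and NIP7 (-0.42), assembly factors of the small and the large subunit. The mitochondrial list had 10 negative and 1 positive call of 58, beside 8.29% and 3.24% of all probe sets.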

How the data were processed

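RNA of peripheral blood mononuclear cells from 24 pigs was labelled with biotin and measured on 1 Affymetrix porcine array per animal. The deposited values were intensities per probe set on a linear scale, with array medians of 38.6 to 41.2. The submitters' processing notes name RMA and GCOS, per the labels, without a version or a role in the sources used here. log2 was taken of all values. Of 23999 probe sets other than the 124 controls, the lowest 25% by mean (log2 under 3.57) were left out, which left 17999. Symbols came from the platform's annotation table, in which 8540 of these had 1 symbol, 168 several and 9291 none. The Entrez identifiers of all 90 member probe sets still carry the same symbol.

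A model with 6 group means and sex was fitted in R 4.3.3 (limma 3.58.1, empirical Bayes; 17 degrees of freedom residual and 3.60 prior), with two-sided tests and Benjamini-Hochberg adjustment over all 17999 probe sets at 0.05. The interaction of sex and diet used 12 diet and sex means. Single values of 4 against 4 were compared by exact permutation. The script was checked on simulated data. The spread behind the p-values is that between animals. The members, lists and tests were chosen with earlier results of these data known. Named genes were the 5 with the highest and the 5 with the lowest moderated statistic in each diet and sex comparison, RPLP0, RPLP1, RPLP2, RPSA, RPS6, RPS4X, RPS9 and RPL6, and the 4 genes whose probe sets differed most. Genes that separate the groups, called genes and the RPS27, RPS13, RPL4, RPL5, RPL8 and RPL14 probe sets outside this rule were named after their values were seen.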

Additional observations from a re-analysis of the deposited data

Results flagged for a closer look

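Each named member was searched for a single animal far from the other 3 of its diet group (Dixon's test at 95%), and 11 of 270 tests found one; chance flags about 1 in 20 groups. CT 4 was set apart by its low RPS9 (12.18, others 13.25 to 13.41) and RPS2 (13.03, others 13.74 to 13.78). RPL27 was low in AD 2 (13.29, others 13.40 to 13.41) and in CT-GE-RES 4 (13.26, others 13.44 to 13.46). RPL26 was low in AD 4 (5.98, others 6.17 to 6.19). AD-GE 2 was set apart by high RPL38 (13.56, others 13.52 to 13.53) and high RPL14 (13.78, others 13.66 to 13.67). RPS10 was high in CT 2 (13.71, others 13.59 to 13.61), and RPS12 was high in AD-GE-RES 4 (13.90, others 13.88). The further probe set of RPS12 was high in AD 4 (5.47, others 5.01 to 5.09) and low in AD-GE 1 (4.90, others 5.62 to 5.72).

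Of 5 control probe sets for ribosomal RNA, which the comparisons above do not use, the 2 for 28S separated AD from CT. Such separation was found for 2.74% of all probe sets tested. The 28S control read 10.69, 10.80, 10.94 and 10.23 in CT and 11.90, 12.07, 12.65 and 12.43 in AD, a difference of 1.60, and another 28S control differed by 0.95. Every AD animal was above every CT animal on both. The two-sided exact permutation p was 0.0286 for each, the smallest that 4 against 4 allows, and 0.29 after adjustment over 25 such tests. The other 3 overlapped between the groups: the 18S controls differed by 0.20 and 0.22 (exact permutation p = 0.80 and 0.20) and the 5S control by 0.99 (exact permutation p = 0.086). The ribosomal protein genes had a median difference of 0.051 in the same comparison. Whether the control signals follow the amount of ribosomal RNA was not tested, so these values do not compare amounts.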

How the results depend on the processing

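In the 5 diet comparisons 0 members were called by limma in every alternative run. Of 577 values of counts and medians under the alternatives, 19 changed a call, a count by over 1.5 times, or a median by more than the SD between replicates of the member mean (0.043). The member mean had an SD of 0.018 (AD) to 0.074 (CT) over 4 animals, which limits what these arrays can resolve. No paired analysis was possible because the labels give the animals of different groups no shared replicate numbers. The causes of the changes below were not tested.

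With lower-signal probe sets alone (chosen after seeing the data) the median was 0.24 in AD-GE against AD and -0.034 in CT-GE-RES against CT. With 4 cell marker means in the fit it was -0.036 in AD-GE against AD, -0.074 in AD-RES against AD and -0.0092 in CT-GE-RES against CT. AD-RES against AD gave 0.043 in females and -0.066 in males. Of 195 medians under the alternatives 10 changed sign, 6 of them by less than that SD: AD-GE-RES against AD with the marker means (-0.010), and AD-RES against AD with all probe sets of a gene (0.0066), lower-signal sets (0.022), repeated quantile normalization (6.63e-04), and without AD 3 or AD-RES 3 (both 0.0012). Counted as probe sets, 1 was called between the sexes and 2 on the monocyte slope (chosen after seeing the data), where an intensity trend with a robust prior called 1 gene. On the 3'/5' ratio 2 genes were called with median centring, 2 with array weights and 1 without CT 4 and AD-GE-RES 1. With each array left out, 1 (without CT 1 or CT 4) to 5 genes were called on the ratio, and 0 to 7 (without CT 3) in the interaction of sex and diet. The call of the further RPS13 probe set was lost in 20 of 30 settings.

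Among named genes 46 of 2590 values turned, of 29 differences; none of those differences was called. In AD against CT, females gave 0.052 for RPL30, 0.018 for RPS26, 0.12 for RPL26, -0.037 for RPSA and, for further probe sets, 0.28 for RPL6, 0.026 for RPS6 and -0.091 for RPS28; males gave 0.058 for RPLP0. There the ratio in the fit gave 0.0015 for RPS18 and 0.073 for the further RPL6 set, which was 0.21 without CT 4 and AD-GE-RES 1. The cell marker means gave 4.19e-04 for RPS26, 0.018 for RPS18, 0.014 for RPL26 and -0.074 for the further RPS12 set. In AD-GE against AD they gave -0.12 for RPL37 and 0.026 for RPS15A, repeated quantile normalization gave 0.0087 for RPLP2, and males gave 0.075 for RPL26. In AD-GE-RES against AD males gave -7.00e-04 for RPS28, -0.029 for RPL38, 0.14 for RPL30, 0.031 for RPSA and 0.0040 for RPS24. In AD-RES against AD females gave 0.074 for RPS27, 0.0069 for RPS10 and 0.0059 for RPL15, and males -0.018 for RPL3 and 0.026 for RPL26. In CT-GE-RES against CT the cell marker means gave -0.059 for RPS9, the ratio 0.0012 for RPL27, females 0.010 for RPL37 and 0.018 for RPL27, and males 0.024 for RPS27A.

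With each array left out, AD against CT ranged from -0.026 to 0.027 for RPLP0, from -0.088 to 0.033 for RPL26, and for further probe sets from -0.061 to 0.13 (RPS28) and from -0.33 to 0.23 (RPL6). RPS15A ranged from -0.13 to 3.37e-04 in AD-GE against AD, RPS24 from -0.10 to 0.021 in AD-GE-RES against AD and from -2.06e-04 to 0.041 between the sexes, and RPL27 from -0.095 to 0.0072 in CT-GE-RES against CT.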
